A study of Oikopleura dioica with 8 samples.

Results

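RPL32 is a protein of the large ribosomal subunit, and the tunicate *Oikopleura dioica* has 2 gene models that the study paired with human RPL32. GSOIDT00006992001 was listed by the study as *trans*-spliced with the spliced leader (SL), and GSOIDT00006994001 as lacking it. They are called here the copy with SL and the copy without SL. The pair was chosen by this annotation, 2 of the 17212 gene models counted, and both were among the 14595 with at least 100 reads over all libraries, which were the ones tested. The pair is the only one among the 5 orthologs with 2 gene models in the study's list of genes orthologous to human TOP mRNAs where 1 copy has the leader and the other does not.

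In *trans*-splicing, a short leader made as a separate RNA is joined to the start of an mRNA, and in *O. dioica* most mRNAs of ribosomal proteins receive it. In vertebrates the mRNAs of ribosomal proteins start with a run of pyrimidines, the terminal oligopyrimidine (TOP) motif, through which the growth regulator mTOR controls their translation. The study asked whether the spliced leader takes over this role. A pair of gene models for 1 ortholog that differ in the leader allows both to be read in the same animals. The study took the leader from splice sites mapped earlier in other samples, so that the 5′ ends of the mRNAs were not measured in these libraries. It classed a gene as *trans*-spliced when such a site, with enough sequence support, lay in the gene or shortly upstream. Lacking the leader therefore means that no such site was found. Whether a low RNA level of GSOIDT00006994001 hid a site was not tested.

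The samples were whole cultured *O. dioica*, pooled on day 7, and the labels give neither sex nor any genetic change. In stasis the animals had been kept crowded and on reduced food, and they were collected in this growth-arrested state. In release they had the same history, were moved to normal density, with food present as the study describes it, and were collected after 30 min. Density and food therefore cannot be told apart between the states. Each state had 2 samples (replicates 1 and 2), and each sample gave a total RNA library and a library of ribosome protected fragments (RPF), the pieces of mRNA left after nuclease digestion because a ribosome covered them, so 8 libraries in all. For total RNA, some of the animals in a sample were taken.

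The deposited values were read counts per gene model, without normalization. Total RNA libraries held 13041273 to 22839600 reads. RPF libraries held 1488886 and 1240592 reads in replicate 1 of stasis and release, but 261745 and 308680 in replicate 2, so that replicate 2 carried little information on gene models with few reads. The methods do not say how reads that match several places were counted, and the likeness of both RPL32 gene models in sequence was not analysed here, so reads could have been divided between them or lost from both. Gene length was not analysed here either, so that total RNA reads of different gene models are compared as reads, not as transcripts. In whole animals, fewer cells of a type and less RNA per cell cannot be told apart.

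Total RNA reads were several-fold more numerous on the copy with SL. It had 608 and 617 reads in the stasis replicates and 592 and 896 in the release replicates. The copy without SL had 219 and 171 reads in stasis and 155 and 192 on release. The former exceeded the latter in each of the 4 samples, by 2.78-fold and 3.61-fold in stasis and by 3.82-fold and 4.67-fold on release. The log2 ratio was 1.87 ± 0.31 (SD, n = 4), and the exact sign-flip permutation test (two-sided) gave p = 0.125, the smallest that 4 samples allow.

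Ribosome protected fragments lay almost entirely on the copy with SL. Its RPF reads, replicate 1 first, numbered 77 and 12 in stasis and 73 and 10 in release. On the copy without SL, 0 and 0 were counted in stasis and 3 and 2 in release. Summed over the 4 samples these were 172 reads against 5, while total RNA reads were 2713 against 737. The low numbers in replicate 2 went with the shallow libraries of that replicate, where both copies together had 12 RPF reads in each state.

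**Figure D1:**
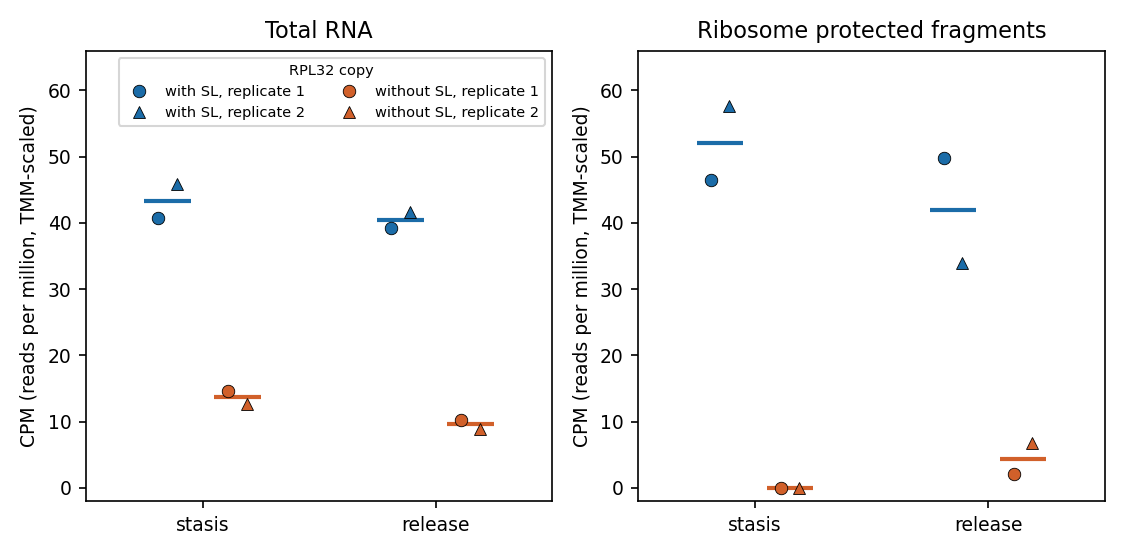
Levels of the RPL32 copies by state, with total RNA on the left and RPF on the right. The y axes give CPM, counts per library size after TMM scaling, points are samples (circles replicate 1, triangles replicate 2) and bars are means of 2 samples. The copy with SL lies between 39.2 and 45.9 CPM in total RNA and between 34.0 and 57.7 CPM in RPF, and the copy without SL is lower in every library and at 0 in both stasis RPF libraries.

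The copy without SL made up a part of the pair's total RNA that was not matched in the footprints. It held 26.5% of the pair's total RNA reads in stasis replicate 1 (Clopper-Pearson 95% interval 23.5 to 29.6) and 21.7% in stasis replicate 2 (18.9 to 24.7). On release it held 20.7% (17.9 to 23.8) and 17.6% (15.4 to 20.0). Its share of the pair's RPF reads was 0 of 77 in stasis replicate 1, which allows a share of up to 3.90% at a floor of 3 reads and up to 4.68% by the exact interval, and 3.95% in release replicate 1 (0.822 to 11.1). Both, with their upper limits, lay below the intervals of the total RNA shares. In replicate 2 it was 0 of 12 in stasis, which allows up to 25.0% at the floor and up to 26.5% by the exact interval, and 16.7% on release (2.09 to 48.4), and these limits include the total RNA share. All such intervals cover counting error only, not differences between animals.

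**Figure D2:**
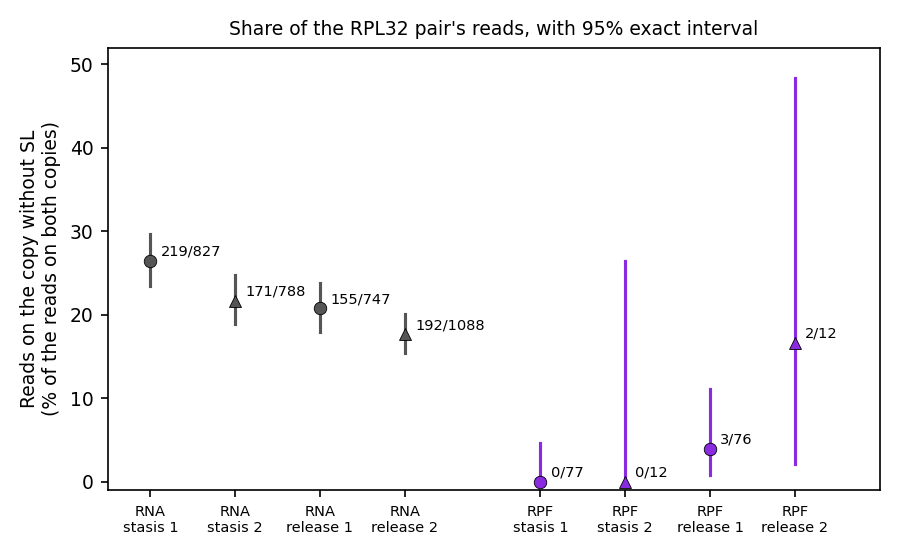
Share of the RPL32 pair's reads that fell on the copy without SL, in percent, for each total RNA library (grey) and RPF library (purple), with exact 95% intervals for counting error and the reads beside each point. The RPF shares of both replicate 1 libraries, 0% and 3.95%, lie under all total RNA shares, and the intervals of both replicate 2 RPF libraries are too wide to separate them.

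Translational efficiency (TE) was taken as the share of a library's RPF reads that fell on a gene model over its share of the total RNA reads of the same sample, so that 1 is the average of all reads. The copy with SL reached 1.19 and 0.969 in the stasis replicates and 1.57 and 0.826 in the release replicates. The copy without SL stood at 0 in both stasis replicates, with limits of 0.128 and 0.874 at 3 reads, and at 0.247 and 0.771 in the release replicates. The limit of the copy without SL in stasis replicate 2 was close to the value of the copy with SL there.

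Library size cancels when the RPF and total RNA reads of the copies are compared within a sample, as does gene length where it acts alike on both assays. A difference between the copies in the part of the mRNA that ribosomes cover does not cancel. Neither do reads divided between the copies or lost from both, if the assays differ in this. These were not analysed here. In stasis replicate 1 the odds of a read being an RPF read were higher for the copy with SL, with an exact 95% interval of the odds ratio from 7.25 upwards (two-sided p = 2.57e-10 by Fisher's exact test, 1.03e-09 when adjusted over the 4 samples). In release replicate 1 the odds ratio was 6.36 (2.05 to 32.0, Fisher's exact test p = 9.71e-05, adjusted 0.000194). In stasis replicate 2 the interval ran from 0.761 upwards (Fisher's exact test p = 0.0802, adjusted 0.107). In release replicate 2 the odds ratio was 1.07, with an interval from 0.226 to 10.1 (Fisher's exact test p = 1). The copies thus differed beyond counting error in both samples with a deep RPF library. These tests leave out variation between libraries, which was larger than counting error over gene models with enough reads. There the chi-square over its degrees of freedom, where 1 is counting error alone, was 56.9 between the stasis RPF replicates. Between the release RPF replicates it was 25.5. In the samples with shallow libraries a difference was not detectable at this depth, and the wide intervals do not show that the copies were alike.

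Had the copy without SL gained RPF reads at the rate of the copy with SL in the same sample, 27.7 would have been counted in stasis replicate 1, where 0 were. In release replicate 1 the numbers were 19.1 and 3. In replicate 2 they were 3.33 and 0 in stasis and 2.14 and 2 on release. Over the 4 samples 52.3 reads would have been counted at this rate and 41.6 at the rate of each library as a whole, and 5 were. Both rates are high for a gene model. Where the library as a whole has a TE of 1, the median of all gene models was 0.447 and 0.198 in the stasis replicates. In the release replicates it was 0.515 and 0.329. At the rate of a typical gene model fewer reads would thus have been counted, and the shortfall would be smaller. The copy with SL had 172 RPF reads where the rate of the libraries gave 136.

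**Figure D3:**
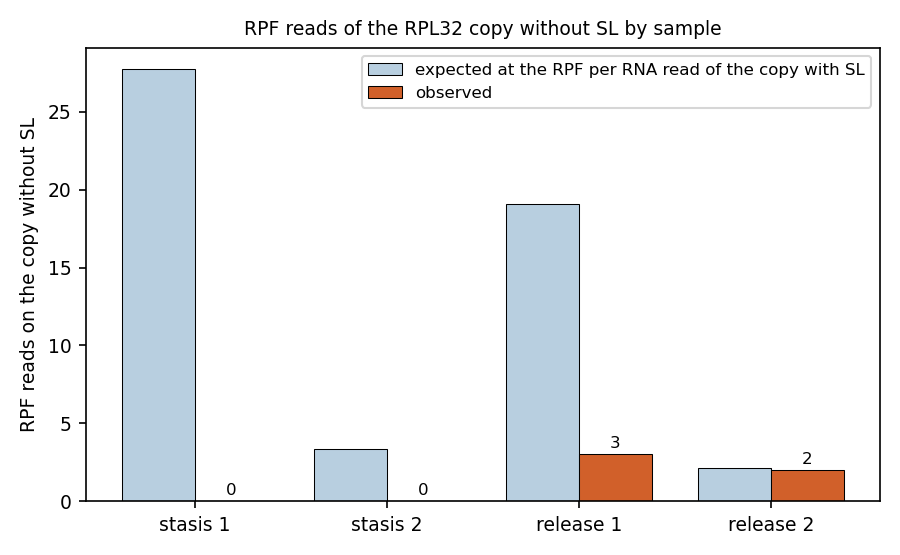
RPF reads of the RPL32 copy without SL in each sample. Pale bars are the reads expected from its total RNA reads at the RPF per total RNA read of the copy with SL, and orange bars with numbers are the reads observed. In replicate 1 the observed 0 and 3 stand against 27.7 and 19.1, and in replicate 2 the observed 0 and 2 stand against 3.33 and 2.14.

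Over samples, the log2 ratio of the TE of the copies (with SL over without SL, 0.5 reads added to each count) took values of 5.81 and 2.80 in stasis and of 2.46 and -0.15 in release. It was above 0 in 3 of 4 samples, with a mean of 2.73 ± 2.44 (SD, n = 4), and the exact sign-flip permutation test (two-sided) gave p = 0.25, where 4 samples allow no value below 0.125. The design can therefore not carry this comparison past a threshold of 0.05. The mean depends on the number added, since 2 of the values rest on 0 reads, and it was 2.15 with 1 read added. Without stasis replicate 1 it was 1.70.

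The states were then compared within each copy. In total RNA the copy with SL had 40.8 and 45.9 CPM (counts per library size after TMM scaling) in stasis and 39.2 and 41.6 CPM on release, and the states overlapped. Its means were 43.3 ± 3.60 and 40.4 ± 1.71 CPM (SD, n = 2), a log2 change of -0.10 (standard error 0.11, edgeR adjusted p = 0.573). The copy without SL had 14.7 and 12.7 CPM in stasis and 10.3 and 8.91 CPM on release. Its means were 13.7 ± 1.40 and 9.58 ± 0.950 CPM (SD, n = 2). The log2 change was -0.52 (standard error 0.17), which did not pass the test (edgeR adjusted p = 0.105).

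Both release samples lay below both stasis samples for the copy without SL, as they did for 31.6% of all gene models tested. Its unadjusted p was 0.0213 by edgeR, and a p under 0.05 with lower RNA was found for 13% of all gene models. After adjustment 9.08% of all gene models were called in total RNA (993 higher and 332 lower, or 675 and 888 when scaled to library totals), and neither copy was among them. Under 1 alternative, which left out stasis replicate 2, the copy without SL passed the test with a log2 change of -0.63 (edgeR adjusted p = 0.0164). In that setting 4796 of the 14595 gene models were called (2640 higher and 2156 lower), against 1325 with all samples. Over its other alternatives the adjusted p ran from 0.0625 to 0.511.

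The total RNA of the copies was also set against each other. The log2 ratio of reads (with SL over without SL) took values of 1.47 and 1.85 in stasis and of 1.93 and 2.22 in release, so that both release samples were above both stasis samples. The means were 1.66 ± 0.27 and 2.07 ± 0.20 (SD, n = 2), a difference of 0.42. The exact permutation test of 2 against 2 samples (two-sided) gave p = 0.333, the smallest it can give. Gene length and library size do not enter this difference. Without stasis replicate 1 it was 0.23.

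In the RPF libraries the copy with SL had 46.5 and 57.7 CPM in stasis and 49.9 and 34.0 CPM on release, and the states overlapped (log2 change -0.26, standard error 0.73, edgeR adjusted p = 1). For the copy without SL no fold is given, since 0 and 0 reads in stasis and 3 and 2 on release are at or below the floor of 3 reads in every library. Its RPF difference did not pass the test (edgeR unadjusted p = 0.0709, adjusted p = 1). No RPF read in either stasis library was found for 5.66% of all gene models, and 0.658% had none there and at least 1 in both release libraries, as this copy did. The RPF test called 0.00685% of all gene models.

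The change in TE between states was tested as the interaction of state and assay. It was -0.026 log2 units for the copy with SL (standard error 0.42, edgeR adjusted p = 1.00), and its sign depended on the scaling. Scaled to library totals it was 0.23, while the median of all gene models moved from -0.026 to 0.22. For the copy without SL the edgeR test gave an unadjusted p of 0.0206 and an adjusted p of 0.819. Before adjustment, 2.45% of all gene models were higher at p under 0.05 (357, with 510 lower), as this copy was. After it the test called 0% of them, and DESeq2 called 3 higher and 21 lower. The difference between the copies in their response, taken from the log2 TE ratios, was -3.14 (means 4.30 ± 2.13 in stasis and 1.16 ± 1.85 on release, SD, n = 2), with p = 0.333 by the exact permutation test, again the smallest possible. In the stasis samples it rests on 0 reads of the copy without SL, and without stasis replicate 1 it was -1.64.

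Both RPL32 gene models had few reads for ribosomal protein genes. The study's list held 70 gene models with a ribosomal protein ortholog, and all 70 were tested. Summed over the 4 total RNA libraries, their median was 78768 reads, and the 737 and 2713 reads of the RPL32 copies were the lowest and the second lowest of the 70. The median was 29.0 times the reads of the copy with SL and 107 times those of the copy without SL. Both copies together had 3450 reads, and the lowest of the other 68 was the model of RPL7L1 and RPL7 (GSOIDT00006991001) with 8443. Among all 14595 gene models, 66.5% had fewer total RNA reads than the copy with SL and 30.8% fewer than the copy without SL.

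In footprints per total RNA read, the copies stood near opposite ends of these genes. The TE of the copy with SL was above that of 67 and 68 of the 70 in stasis and of 68 and 64 on release, where the median TE of the 70 was 0.399, 0.282, 0.415 and 0.390 in the same order. It was also above that of 84.9%, 88.6%, 89.5% and 80.6% of all gene models. In reads summed over samples it had 6.34 RPF reads per 100 total RNA reads, second to the RPS15P5 ortholog GSOIDT00016058001 with 8.69, and the median of the 70 was 1.93. The copy without SL had 0.678, the second lowest after an RPLP1 model (GSOIDT00000922001) with 0.463. It was the single one of the 70 without an RPF read in either stasis library. In release replicate 1, 9 of the other ribosomal protein models had an equal or lower TE, and in release replicate 2, with 2 reads, 60 had.

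**Figure D4:**
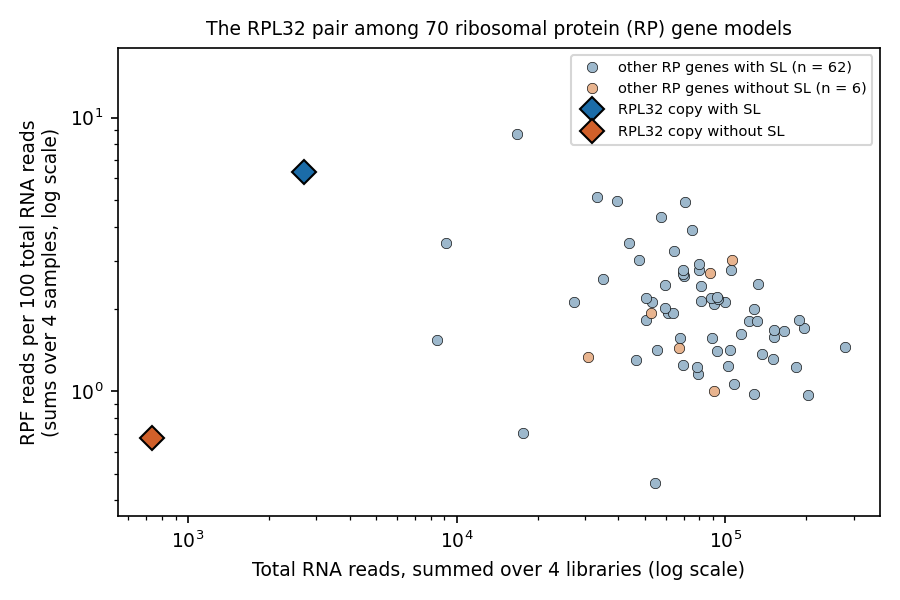
The RPL32 copies among 70 gene models of ribosomal proteins (RP). The x axis gives total RNA reads and the y axis RPF reads per 100 total RNA reads, both from sums over 4 samples on log scales, and each point is a gene model. The copies (diamonds) have the fewest total RNA reads, 2713 and 737, and stand at 6.34 and 0.678 RPF reads per 100.

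Between states, the total RNA of the 70 ribosomal protein models had a median log2 change of 0.077 beside -0.018 for all gene models, and 24 of them were below 0. The test called 1 higher and 0 lower of the 70, beside 993 higher and 332 lower of all gene models. Scaled to library totals it called 0 of the 70, beside 675 higher and 888 lower of all gene models. The count among the 70 moved when any sample was left out, as did the number called among all gene models. Which direction held most calls among the 70 depended on which stasis sample was left out. Whether these shifts are particular to the 70 was not tested. The one called with all samples was RPL7A (GSOIDT00010732001), another protein of the large subunit, with a log2 change of 1.44 (edgeR adjusted p = 0.0448). The change of -0.52 in the copy without SL was the second lowest of the 70, after RPL5 (GSOIDT00015548001), which carries the small 5S RNA into the large subunit, at -0.54 (edgeR adjusted p = 0.170). The copy with SL, at -0.10, had 15 below it. In RPF and in TE 0 of the 70 were called in either direction.

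The ribosomal protein genes nearest to each copy in total RNA were found by the Euclidean distance of log2 CPM over the 4 libraries, each gene centred on its own mean. For the copy with SL they were RPLP0, the acidic stalk protein, at 0.061, RPL10L at 0.091 and RPL36AL at 0.094. For the copy without SL the nearest, RPL24, was at 0.47, followed by RPS4X at 0.49 and RPL4 at 0.53. The copies were 0.53 from each other. The copy with SL thus had near neighbours among the ribosomal protein genes and the copy without SL had none as close. With 155 to 219 total RNA reads per library against 592 to 896, the copy without SL carries more counting error, which widens its distances. How much of its distance is counting error was not tested.

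Of the other orthologs with 2 gene models, RPL4, RPLP1 and RPLP2 have the leader on both and EEF1B2, a subunit of the elongation factor that reloads eEF1A, on neither. The log2 ratio of TE, with the copy of higher total RNA over the other, was -0.60 ± 0.23 for RPL4, 1.60 ± 0.43 for RPLP1 and -0.95 ± 0.62 for RPLP2 (SD, n = 4 samples), with the same sign in all 4 samples of each. For EEF1B2 it was 0.21 ± 1.62 (SD, n = 4), from -1.44 to 1.83, with samples on both sides of 0, and its second copy had 0 RPF reads. RPLP1, whose proteins form the stalk together with RPLP2, had 1068 and 254 RPF reads on 67846 and 54882 total RNA reads. The ratio of the RPL32 pair was wider in both stasis replicates (5.81 and 2.80, where RPLP1 had 2.15 and 1.60). Both of these RPL32 values rest on 0 RPF reads of the copy without SL. On release the RPL32 ratio was 2.46 and -0.15 where RPLP1 had 1.54 and 1.10. The TE ratios of RPL4, RPLP1 and RPLP2 lay on 1 side of 0 in every sample, and those of RPL32 did not. The single RPL32 value below 0, in release replicate 2, rests on 10 and 2 RPF reads, where the RPLP1 copies had 111 and 45. The signs are therefore no contrast between pairs that share the leader and the pair that does not. Whether the RPL32 pair differs more than the other pairs was not tested.

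EEF1B2 was the pair most like RPL32 in its number of reads. Its second gene model, GSOIDT00004766001, had 37 and 73 total RNA reads in stasis and 56 and 110 on release, and 0 RPF reads in all 4 libraries. Its first, GSOIDT00014951001, had 6261 total RNA reads and 97 RPF reads over the 4 samples. In total RNA the log2 ratio of the copies was 4.56 ± 0.36 for EEF1B2 and 1.87 ± 0.31 for RPL32, and it was 0.27 ± 0.057, 0.33 ± 0.096 and 0.62 ± 0.33 for RPL4, RPLP1 and RPLP2 (SD, n = 4). The RPLP2 ratio was also higher in both release samples (0.82 and 0.97) than in both stasis samples (0.44 and 0.25), as it was for RPL32.

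**Figure D5:**
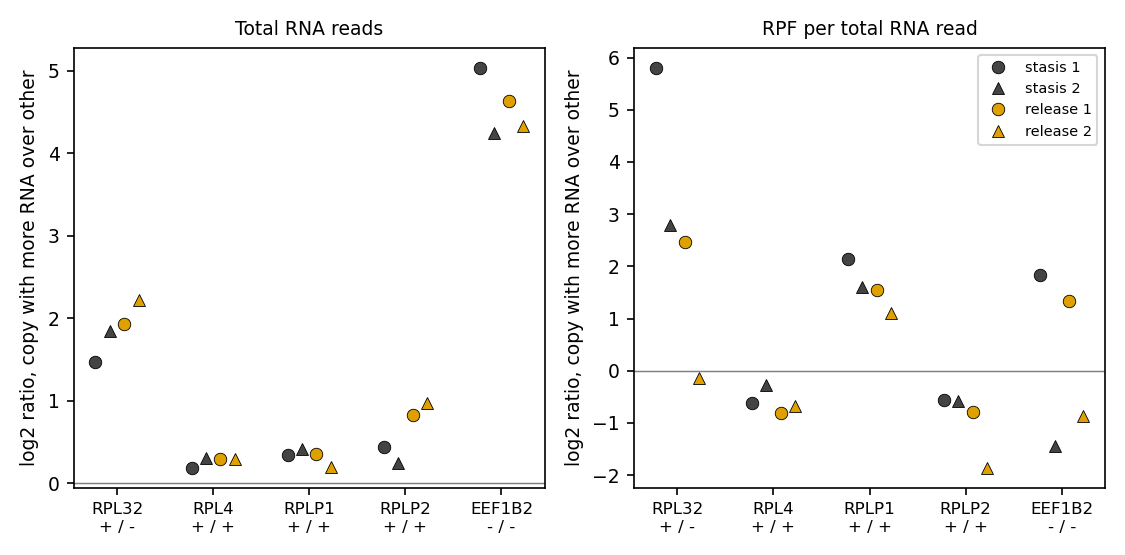
Orthologs with 2 gene models, as the log2 ratio of the copy with more total RNA over the other, in total RNA reads (left) and in RPF per total RNA read (right, 0.5 reads added). Points are samples, in grey for stasis and yellow for release, and + or - under each name gives the leader of the first and second copy. The RPL32 ratios of TE spread from -0.15 to 5.81, and those of RPL4, RPLP1 and RPLP2 lie on 1 side of 0. Those of EEF1B2, from -1.44 to 1.83, rest on the 0.5 reads added, since its second copy has 0 RPF reads.

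The study listed 9 genes of its TOP list without the leader, and the RPL32 copy was 1 of them. The others described here are the EEF1B2 models and the ribosomal protein models of RPL22, RPL27, RPS4X, RPS9 and RPS25P8. These ribosomal protein models had between 30863 (RPL27) and 105920 (RPS4X) total RNA reads and between 412 and 3187 RPF reads. Their TE in stasis replicate 1 ran from 0.203 (RPL22) to 0.609 (RPS4X), and in release replicate 1 from 0.189 to 0.636. The copy without SL, with a limit of 0.128 in stasis replicate 1 and a value of 0.247 in release replicate 1, lay below RPL22 in the former and just above RPL27 (0.237) in the latter. In replicate 2 the order differed. There its limit of 0.874 in stasis was above the TE of all these ribosomal protein models, so that no order can be given, and on release its 0.771, from 2 reads, was above their range of 0.318 to 0.734. Each of these models had footprints in both stasis libraries, from 25 reads upwards. They also had far more total RNA reads than the 737 of the copy without SL, so these counts are no contrast to its 0 reads. The second EEF1B2 model, with 276 total RNA reads and 0 RPF reads, had none there.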

How the data were processed

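The authors clipped adapters, removed rRNA and tRNA reads with Bowtie2, aligned the rest to the genome with TopHat along the Genoscope gene models, and summed them over each protein-coding gene with Rsubread. The submitters' processing notes name Bowtie2 2.1.0, TopHat2 2.0.13 and featureCounts. The deposited values are whole-number counts, 1 column per library, with 0 columns unmatched to a sample. Genome build and strand setting: not given in the sources used here.

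Counts were tested with edgeR 4.0.16 in R 4.3.3 (TMM, quasi-likelihood test, Benjamini-Hochberg over 14595 gene models, threshold 0.05), with a minimum of 100 reads over the 8 libraries. TMM factors for TE were set within each assay. The standard error was the log2 change over the square root of F. The study's babel package was not used. The copies were compared with Fisher's exact test and exact permutations in Python 3.11.15 with scipy 1.17.1. Scripts were tested on simulated data. RefSeq's table of OKI2018_I68_1.0 matched 0 identifiers, so no position or sequence is given. Members, lists and tests were chosen with earlier results of these data known. The named genes were the pair, the TOP genes without the leader, orthologs with 2 gene models, the 3 ribosomal protein genes nearest to each copy and those called. Others at an extreme (the models of RPS15P5, RPL5 and RPL7) were named after their values were seen. A TOP gene without the leader is not reported here. Replicates are separate samples of pooled animals. Alternatives were library totals, DESeq2 1.42.0, no filter, TMM over all 8 libraries, a replicate block, another added count, summed reads and each sample left out.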

Additional observations from a re-analysis of the deposited data

How the results depend on the processing

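Over 118 recomputed values, 95 were rated the same. For the change of a copy this meant the same direction and side of the threshold. For ratios between the copies it meant the same sign only, and for numbers of gene models called a similar size. Of the rest, 19 were numbers called that moved, 3 were changes that reversed and 1 was a change that passed the threshold. The change in TE of the copy with SL, -0.026, turned to 0.23 with library totals and to 0.047 with TMM over all 8 libraries, and lay between -0.51 and 0.15 with a sample left out. The change in total RNA of the copy without SL lay between -0.63 and -0.42 with a sample left out, and passed the threshold without stasis replicate 2. The number of gene models called in RPF was 1, and 0 with library totals, with DESeq2 and with no filter (0 to 39 with a sample left out). In TE it was 0, and 24 with DESeq2 (0 to 167 with a sample left out). In total RNA it was 1325, and 0 to 4796 with a sample left out. The TE ratio of the copies stayed above 0 on average, between 1.70 and 3.69 with a sample left out, and was 3.09 when reads were summed over samples first.

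With the replicate number as a block, the copy without SL changed by -0.52 in total RNA (edgeR adjusted p = 0.0858), and the copy with SL by -0.18 in TE. RPF and total RNA libraries of a sample come from the same sample of animals, so the block in the TE test was the sample. Across genes, which are not replicates, the deviations of same-numbered samples had r = 0.198 in total RNA and r = 0.146 in RPF, but 2 pairs cannot show a pairing. Between total RNA and RPF of the same samples, the differences of replicate 1 from replicate 2 had r = 0.00617 in stasis and r = 0.0797 in release. The block changed neither copy's call. Limits are the depth, with 12 RPF reads on the pair in each replicate 2 library, and the 2 samples per state. With a sample left out, the lone sample of its state is assumed to vary like the other state.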
